A study of Xenopus tropicalis with 18 samples.

Results

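The hypochord is the rod of cartilage and bone that forms under the notochord of the frog tadpole and becomes the ventral part of the urostyle, the bone that ends the vertebral column of adult frogs. It matures while thyroid hormone drives metamorphosis and the tail with its notochord is lost. The comparison described here set hypochord at stage 61 against hypochord at stages 56 and 58 combined, in wild-type Xenopus tropicalis, with coccyx, the dorsal part of the urostyle, as the other tissue of the series. Its members are 6 of the 18 libraries of the series, chosen by tissue and stage label: stage 61 replicates 1, 2 and 3, stage 56 replicates 1 and 3, and stage 58 replicate 2. No group received a treatment per the labels. Whether a library holds 1 animal or a pool, and whether replicates are different animals, is not stated, so the spread behind each p-value may be technical. In the group of stages 56 and 58, that spread also holds any difference between these stages. In such bulk samples, fewer cells of a type and less RNA per cell cannot be told apart.

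The 4 libraries of replicates 1 and 2 list 19921 genes, and their totals were 5414246 counts at stage 56, 7271829 at stage 58, and 4941137 and 5602507 at stage 61. A floor of 3 counts in them is 0.413 to 0.607 CPM (counts per 1000000 counts), for counting error only. Replicate 3 lists 21458 genes under identifiers that rise by exactly 1 from line to line. Under the 11315 identifiers that both kinds of table list, mean hypochord levels in the tables were unrelated (Spearman's rho 0.011 over genes, which are not replicates). Replicate 3, with 17002519 counts at stage 56 and 14862183 at stage 61, is therefore described within its own table. The files do not pair identifiers with gene names, so no marker gene could check the tissue or stage label of any library. The labels were taken as given. Replicate 3 has the opposite order of stages from replicates 1 and 2 in the number of genes detected at an equal depth of counts, in both tissues. A mislabelled library cannot be told apart from a difference between replicates.

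In replicates 1 and 2, many more genes were counted at stage 61 than at the earlier stages. Drawn to the same depth of 1918822 counts, the stage 56 library held 6875 genes and the stage 58 library 6611. The stage 61 libraries had 10937 in replicate 1 and 10720 in replicate 2. The groups did not overlap, and stage 61 had 1.61 times as many genes as the earlier stages (lowest of the 4 pairs of libraries 1.56, highest 1.65). With 2 libraries in each group an exact test cannot pass the threshold, so none was made. The coccyx libraries of the same stages and replicates went the other way, with 12793 and 12835 genes at stages 56 and 58 and 12410 and 12184 at stage 61, a ratio of 0.960.

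Replicate 3 showed the opposite order in hypochord. Its stage 56 library had 10175 genes at the same equal depth and its stage 61 library 8822, a ratio of 0.867. In coccyx, replicate 3 had 11386 genes at stage 56 and 13024 at stage 61, a ratio of 1.14. With all counts of the libraries, hypochord replicate 3 was nearly level, at 11163 genes at stage 56 and 11042 at stage 61. A higher number of genes at stage 61 was thus seen in replicates 1 and 2 of hypochord and not in replicate 3.

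**Figure D1:**
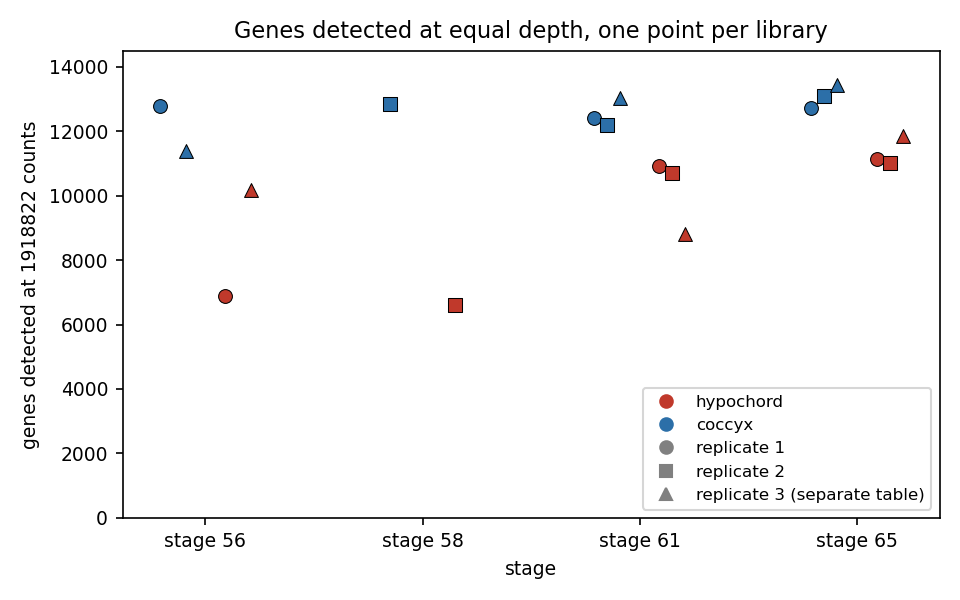
Genes detected at an equal depth of 1918822 counts (vertical axis) by stage (horizontal axis), one point per library, with red for hypochord, blue for coccyx and the marker shape for the replicate. The hypochord libraries of stages 56 and 58 in replicates 1 and 2 lie at 6875 and 6611, under all others, while the triangles of hypochord replicate 3 go down from 10175 at stage 56 to 8822 at stage 61.

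The genes missing at the earlier stages were mostly of low level. Of 7801 genes with at least 10 counts in both stage 61 libraries, 1638 (21.0%) had 0 counts at stage 56 and 1574 (20.2%) had 0 at stage 58. Among those under 5 CPM at stage 61 the shares were 52.8% at stage 56 and 56.0% at stage 58. From 5 to 20 CPM they were 29.7% and 28.1%, from 20 to 100 CPM 6.39% and 4.84%, and at 100 CPM or more 2 of 997 genes were at 0 at stage 56 and 0 of 997 at stage 58. The coccyx libraries of stages 56 and 58 had 0 counts for 31 (0.397%) and 7 (0.0897%) of the same 7801 genes.

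**Figure D2:**
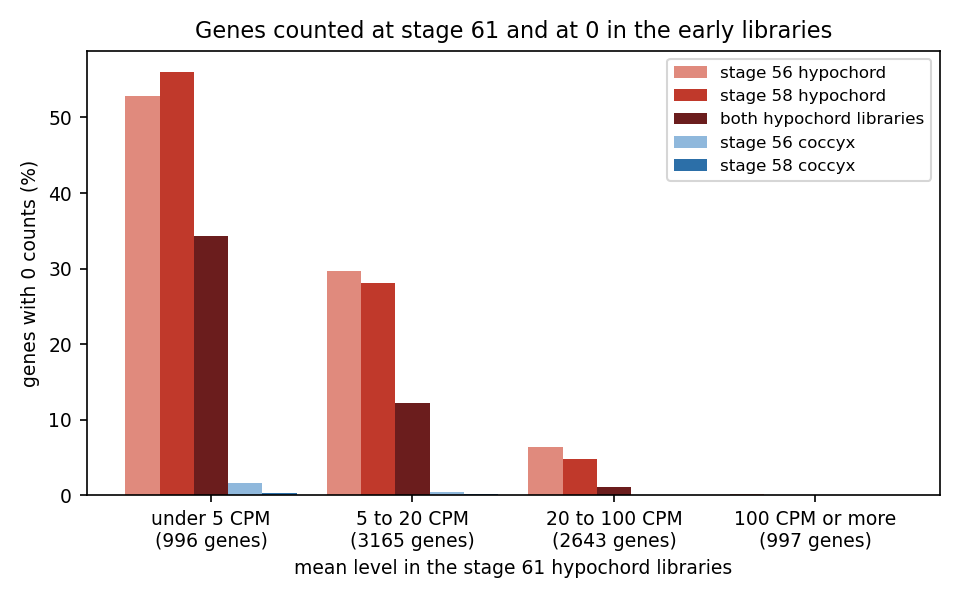
Share of genes with 0 counts (vertical axis, %) in the early hypochord libraries (red) and early coccyx libraries (blue), for genes with at least 10 counts in both stage 61 hypochord libraries, by their mean CPM at stage 61 (horizontal axis). The red bars fall from 52.8% and 56.0% under 5 CPM to at most 0.201% at 100 CPM or more, and no blue bar exceeds 1.61%.

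The early libraries missed partly different genes. Of the 7801 genes, 755 (9.68%) had 0 counts at both early stages and 1702 had 0 at only one of them. Stage 58 had 0 counts for 46.1% of the genes at 0 at stage 56 and for 13.3% of the genes counted there. Within the range of 5 to 20 CPM these shares were 40.9% and 22.6%. In the reverse direction, 4330 genes had at least 10 counts in both early libraries, of which 11 had 0 counts in stage 61 replicate 1 and 12 in replicate 2, and 1 gene was at 0 in both.

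The 755 genes counted at stage 61 and at 0 at both early stages were of low to moderate level. Their mean stage 61 CPM ran from 1.90 to 46.1, with a median of 5.36, and 28 of them had 20 CPM or more. Most were counted in other libraries: 733 (97.1%) were counted in both coccyx libraries of stages 56 and 58, where their median was 6.92 and 5.57 CPM. In stage 61 coccyx 742 were counted in both libraries, with medians of 4.96 and 4.71 CPM. In stage 65 hypochord, which is not among the libraries that chose them, 690 (91.4%) were counted in both libraries, with medians of 4.74 and 6.77 CPM. Of all 8478 genes tested in hypochord, 99.4% were counted in both early coccyx libraries and 96.5% in both stage 65 hypochord libraries. The 755 genes were thus counted somewhat less often than that background, which was not matched to their low level. In coccyx itself the same rule found 0 genes counted at stage 61 and at 0 at both earlier stages, and 2 genes in the reverse direction.

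In replicate 3 the imbalance was reversed. There 1430 genes had at least 10 counts in the stage 56 hypochord library and 0 at stage 61, 14.4% of the 9930 genes counted at stage 56. In the other direction 488 genes had at least 10 counts at stage 61 and 0 at stage 56, 6.05% of 8071. Under 5 CPM these shares were 31.8% and 15.3%, and from 5 to 20 CPM 12.7% and 8.15%. From 20 to 100 CPM they were 2.47% and 1.95%, and at 100 CPM or more the order turned, with 0.0898% and 0.629%. The reversal thus lay mostly at low level. Replicate 3 is deeper, so 10 counts is a lower CPM there than in replicates 1 and 2. For single pairs in replicates 1 and 2, 2105 to 2452 genes were counted at stage 61 and at 0 in an early library, and 77 to 140 were the reverse. In coccyx replicate 3, 1023 genes were counted at stage 61 and at 0 at stage 56, and 278 the reverse.

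The early hypochord libraries differed from each other at least as much as from stage 61. Between the stage 58 and stage 56 libraries, 56.6% of 7251 genes differed at least 4-fold in TMM-normalised CPM, 27.7% higher at stage 58 and 28.9% lower. Between the replicates of stage 61 only 12.1% of 8973 genes did so. The 4 pairs of a stage 61 and an early library had 41.1% to 48.9% of genes past 4-fold, with 31.5% to 36.0% higher at stage 61 and 9.62% to 12.9% lower. The early pair was thus wide in both directions alike, and the pairs across stages were tilted to stage 61. Stage as well as library differs within the early pair, and these cannot be told apart.

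The corresponding coccyx libraries were closer. In coccyx, 19.1% of genes were past 4-fold between the stage 58 and stage 56 libraries, 14.0% between the stage 61 replicates and 9.14% to 16.6% between the stages. In hypochord replicate 3, stage 61 over stage 56, 45.0% of 10267 genes were past 4-fold, with 16.9% higher at stage 61 and 28.1% lower. In coccyx replicate 3 it was 31.7%, with 19.1% higher and 12.6% lower. The rank correlation of hypochord levels had the same order. Across the genes of each pair, rho was 0.36 between stages 58 and 56 and 0.79 between the stage 61 replicates. It was 0.55 to 0.60 between the stages and 0.62 in replicate 3. Each pair has its own genes. On the 8478 genes tested, rho was 0.51 between stages 58 and 56, 0.81 between the stage 61 replicates and 0.62 to 0.66 between the stages. These are correlations across genes, which share libraries and are not independent.

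**Figure D3:**
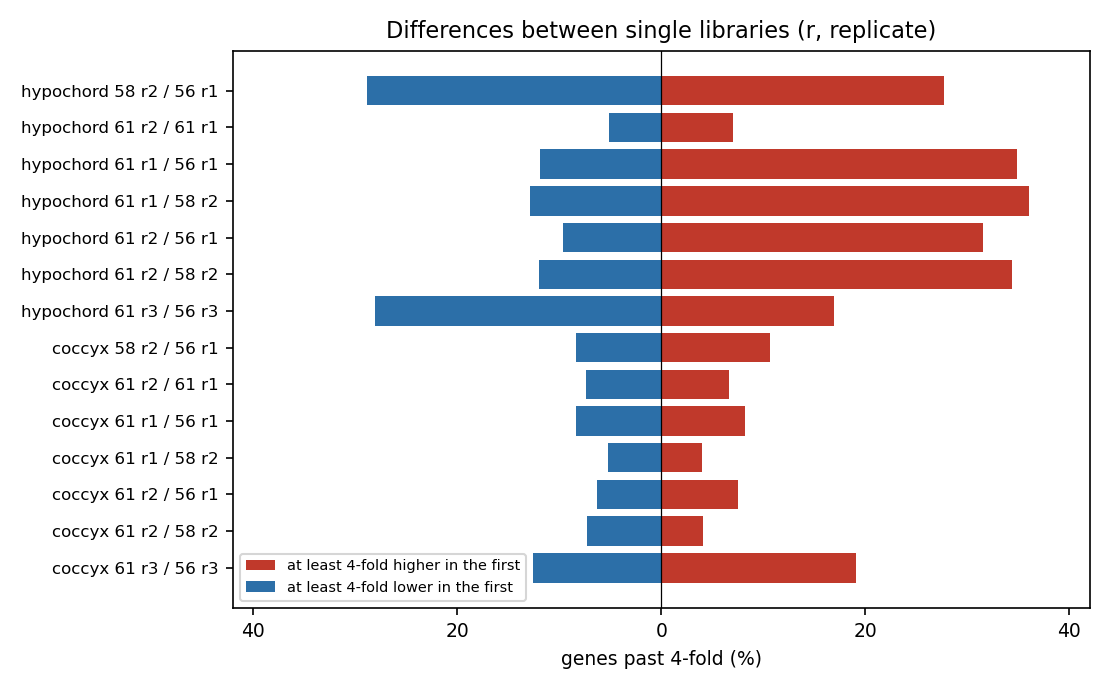
Share of genes (horizontal axis, %) at least 4-fold higher (red, right) or lower (blue, left) in the first of 2 single libraries than in the second, one bar per pair, with the tissue, stage and replicate (r) named on the vertical axis. The bar of hypochord stages 58 and 56 is wide on both sides (27.7% and 28.9%), the 4 bars of stage 61 over an early library lean to the right, and that of replicate 3 leans to the left.

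Many of the most abundant genes were shared between the stages. Of the 100 most abundant genes by mean CPM at stage 61, 76 were also among the 100 most abundant of the early libraries. The list of stage 61 held 43.2% and 53.4% of the counts at stages 56 and 58, and 45.5% and 68.5% in the stage 61 replicates. For single libraries, the stage 61 replicates shared 55 of their 100 most abundant genes, the fewest of any pair, and stages 56 and 58 shared 65. Pairs of a stage 61 and an early library shared 59 to 72. Stage 61 replicate 2 had 70.1% of its counts in its own 100 most abundant genes. This share was 48.0% in replicate 1, 49.7% at stage 56 and 57.2% at stage 58. In stage 61 coccyx it was 64.7% in replicate 2 and 45.8% in replicate 1, so replicate 2 had the higher share in both tissues.

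In the test of the stage difference, 0 of 8478 genes (0%) had an adjusted p below 0.05 (edgeR quasi-likelihood test, smallest adjusted p = 0.234; limma voom also called 0), with a common biological coefficient of variation of 1.12. At an unadjusted p under 0.05 there were 1140 genes higher at stage 61 (13.4% of those tested) and 75 lower (0.885%). A gene counted in only 2 libraries could pass the filter on low counts, and stage 61 supplied more such genes. Without the stage 58 library 1555 genes were called (1360 higher, 195 lower), and without the stage 56 library 1490 (1202 higher, 288 lower), where the single early library was assumed to vary like the stage 61 pair. Without stage 61 replicate 1 or 2, 1 and 10 genes were called, each higher at stage 61, and the genes at an unadjusted p under 0.05 numbered 48 higher and 9 lower without replicate 1 and 44 higher and 39 lower without replicate 2. With a lone stage 61 library, the spread in these fits came from the stage 56 and stage 58 libraries. They therefore cannot assign the tilt to higher genes to either stage 61 replicate. In single pairs with the stage 56 and stage 58 libraries, 34.8% and 36.0% of genes were at least 4-fold higher in stage 61 replicate 1. In replicate 2 it was 31.5% and 34.4%. Fewer genes were lower in each of these pairs, 9.62% to 12.9%. DESeq2 called 227 of 8478 genes on the 4 libraries, 217 of them higher. An edgeR fit of 12 libraries of both tissues called 1690 of 11729 (14.4%), 1632 higher (13.9%) and 58 lower (0.495%), with a coefficient of variation of 0.785. The spread in that fit came from all 12 libraries, so the early hypochord pair was assumed to vary like the others. Its filter also let more genes be tested. The edgeR fits without the stage 58 or the stage 56 library tested 9701 and 9712 genes. Those without stage 61 replicate 1 or 2 tested 8965 and 9262.

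The 1140 genes with higher levels at stage 61 were mainly the genes with missing early counts. Of them, 735 (64.5%) had 0 counts in both early libraries and 273 (23.9%) in one of them, against 8.67% and 24.9% of all genes tested. All 735 genes tested with 0 in both early libraries were in this list. They passed the filter through the stage 61 libraries alone and could only be higher there, so their excess is no test. The remaining 132 were counted in both. The 75 genes with lower levels at stage 61 were counted in both early libraries without exception, and 7 of them had 0 counts in a stage 61 library. Among the 4166 genes with at least 10 counts in every one of the 4 libraries, tested alone, 0 were called and the unadjusted p was under 0.05 for 256, of which 139 were higher and 117 lower. The share higher was 54.3% there and 93.8% in the full table; since this minimum removes every gene at 0 in an early library, a lower share there follows from the filter itself and is no test of the tilt.

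**Figure D4:**
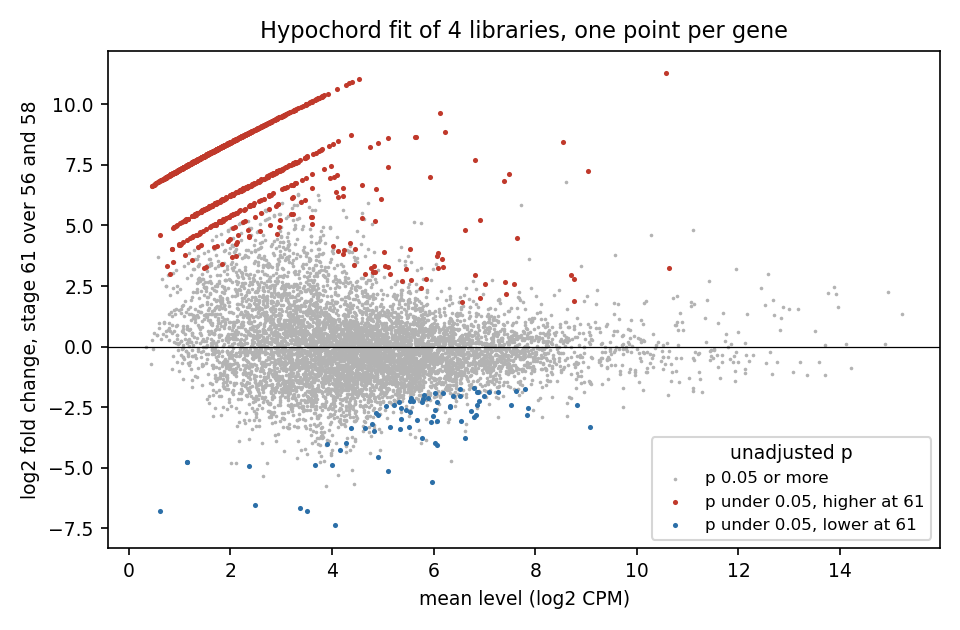
Log2 fold change of stage 61 over stages 56 and 58 (vertical axis) against mean level in log2 CPM (horizontal axis), one point per gene of the hypochord fit of 4 libraries, coloured where the unadjusted p is under 0.05. The parallel lines at the upper left are genes with 0 or very few early counts, whose fitted fold changes depend on the prior count; 0 of the genes shown pass the adjusted threshold.

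The median difference was larger for genes of low level than for the others. The median log2 fold change of stage 61 over the earlier stages was 2.53 for the 2421 genes with a mean log2 CPM below 3, a value that rests on fitted changes of genes with 0 counts. It was -0.08 for 3182 genes between 3 and 5, -0.32 for 1990 genes between 5 and 7, and -0.18 for the 885 genes that reached 7. Over all genes tested it was 0.14, or 0.02 with scaling by total counts and 0.03 with median ratio factors. It was 0.94 with no filter on low counts, 1.12 with limma voom, and 1.18 and 1.07 without the stage 56 and the stage 58 library, so its size depended on the tool, the filter and the early libraries. The quartiles were -1.11 and 1.03 for genes between 3 and 5, -1.02 and 0.41 between 5 and 7, and -0.72 and 0.46 from 7. For the 4166 genes with at least 10 counts in every library the median was -0.26, or -0.13 when scaled and fitted alone. The sign of the small medians from 3 up was thus not settled, as it was not tested under other scalings. In replicate 3 the median log2 ratio of stage 61 over stage 56 was -2.37 for genes below a log2 CPM of 3. It was 0.45 for those between 3 and 5. It was 0.10 between 5 and 7 and -0.03 for genes that reached 7.

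Among genes whose groups did not overlap, more were higher than lower at stage 61. Both stage 61 libraries lay above both early libraries for 2561 of 8478 genes (30.2%) and below them for 1012 (11.9%). With 2 libraries against 2, groups can lie apart with no difference, and that share was not estimated. The 2561 include the 735 genes at 0 in both early libraries, which passed the filter through stage 61 alone. Among the 5634 genes counted in both early libraries, 1037 (18.4%) lay above and 1012 (18.0%) below. All 1012 genes that lay below were among these 5634. Among the 4166 genes with at least 10 counts in every library, 597 (14.3%) lay above and 906 (21.7%) below. Both minimums remove every gene at 0 in an early library. A lower share above thus follows from the filter itself and is no test of the tilt. With median ratio factors, TMM with singleton pairing or total counts, 400 to 548 of the 4166 lay above and 913 to 1029 below. With TMM factors from these 4166 genes alone, 741 lay above and 768 below (scalings of this subset were chosen after seeing the data), so the excess of lower genes among them depended on the scaling.

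At a mean log2 CPM of 5 or more, where 2875 genes were tested, 42 were higher and 55 lower at stage 61 at an unadjusted p under 0.05, and 0 passed the adjusted threshold. Together they are 3.37% of the genes tested at this level, against 14.3% of all genes tested and a nominal 5%. The edgeR shares need not follow that nominal level, as the coccyx stage difference gave 0.537% in a fit that took its spread from both tissues. Whether abundant genes hold an excess of differences therefore cannot be told from the lists, and their levels are given only as a description. The 42 genes had median levels of 9.14 and 6.46 CPM at stages 56 and 58 and of 179 and 86.3 CPM in stage 61 replicates 1 and 2, and 2 of them had 0 counts in an early library. Their median log2 fold change was 3.46. In coccyx the same genes had medians of 87.4 and 68.4 CPM at stages 56 and 58 and of 76.5 and 83.2 CPM at stage 61, and in stage 65 hypochord they had 165 and 181 CPM. The early hypochord libraries were thus the low ones for this list. Medians of this list and the next are CPM by total counts, without TMM factors. On that scale the coccyx medians of stages 56 and 58 lay near those of stage 61 coccyx. The TMM factors over 12 libraries were 1.24 and 1.06 in these early coccyx libraries and 1.09 and 0.725 in stage 61 coccyx. In stage 61 hypochord they were 1.04 and 0.608. The closeness in coccyx and the gap between the stage 61 hypochord replicates may therefore differ under TMM.

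The 55 genes lower at stage 61 had medians of 119 and 129 CPM at stages 56 and 58 and of 24.9 and 16.8 CPM at stage 61, with a median log2 fold change of -2.43. In coccyx their medians were 54.6 and 33.6 CPM at stages 56 and 58 and 32.1 and 20.9 CPM at stage 61. In stage 65 hypochord they were 20.8 and 31.3 CPM. The early hypochord libraries were the high ones here, and every one of the 55 genes was counted in all 4 hypochord libraries. Both lists were chosen by the contrast itself, so the hypochord values of stages 56, 58 and 61 are a description and support nothing.

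Individual genes are given with CPM normalised over the 12 libraries of replicates 1 and 2. The 4 genes were chosen for groups that do not overlap and for a small unadjusted p, so the gap between stages in their hypochord values restates that choice and is a description. ENSXETG00000005400 had 0.570 CPM at stage 56 (3 counts) and 0.360 CPM at stage 58 (2 counts) in hypochord, and 79.9 and 80.2 CPM in stage 61 replicates 1 and 2. The stage 61 replicates were nearly equal. Pooled by total counts (683 against 5) it was 164 times as high at stage 61, with a 95% counting interval of 70.1 to 508. That interval holds no spread between libraries and takes reads as independent, although PCR copies were not marked. It therefore does not secure the fold change of this gene. Its edgeR log2 fold change of 7.39 ± 1.14 (SE, n = 2 libraries per group) missed the threshold (adjusted p = 0.234, range over 14 alternatives 0.000127 to 0.99997). In coccyx it had 46.3 and 39.5 CPM at stages 56 and 58 and 24.9 and 82.9 CPM at stage 61, and in stage 65 hypochord 66.6 and 81.5 CPM. Only the early hypochord libraries were low, among these 12.

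ENSXETG00000003757, the other gene chosen for higher levels at stage 61, had 14.0 CPM at stage 56 and 2.88 CPM at stage 58 in hypochord, and 1915 and 572 CPM in stage 61 replicates 1 and 2. Its log2 fold change was 7.23 ± 1.42 (SE, n = 2 libraries per group), with an edgeR adjusted p of 0.234 (range over 15 alternatives 5.21e-05 to 0.772). In coccyx it was at 16.0 and 69.6 CPM at stages 56 and 58 and at 153 and 457 CPM at stage 61, so that the later libraries were the higher ones there too. Stage 65 hypochord had 4830 and 1135 CPM, and stage 65 coccyx 792 and 214 CPM.

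ENSXETG00000030216 was high in the early hypochord libraries alone among the 12. It had 72.1 CPM at stage 56 and 87.8 CPM at stage 58, and 2.34 and 2.06 CPM in stage 61 replicates 1 and 2, which rest on 12 and 7 counts. Its log2 fold change was -5.13 ± 1.01 (SE, n = 2 libraries per group), with an edgeR adjusted p of 0.234 (range over 14 alternatives 0.00335 to 0.99997). Stage 65 hypochord had 1.14 and 4.01 CPM, and the 6 coccyx libraries had 0 to 11 counts each. The stage 56 coccyx library held the 11 counts, 2.12 CPM.

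ENSXETG00000022049 had 254 CPM at stage 56 and 192 CPM at stage 58 in hypochord, and 39.0 and 30.6 CPM in stage 61 replicates 1 and 2. Its log2 fold change was -2.64 ± 0.67 (SE, n = 2 libraries per group), with an edgeR adjusted p of 0.234 (range over 15 alternatives 0.0404 to 0.99997). In coccyx the stages overlapped, with 62.1 and 195 CPM at stages 56 and 58 and 148 and 61.0 CPM at stage 61. Stage 65 hypochord had 29.5 and 53.0 CPM.

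**Figure D5:**
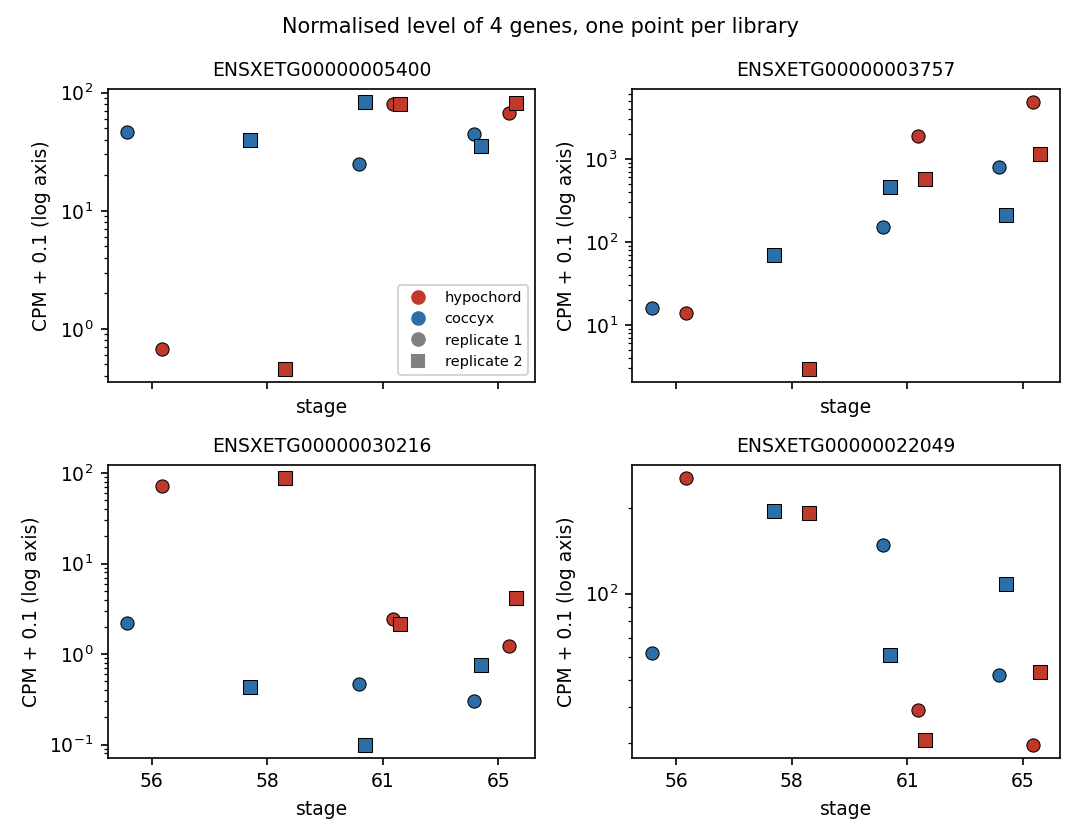
TMM-normalised CPM plus 0.1 on a log axis (vertical) by stage (horizontal) for 4 genes, one point per library of replicates 1 and 2, red for hypochord and blue for coccyx. In the upper panels the early hypochord points lie at 14.0 CPM or less and the stage 61 hypochord points at 79.9 CPM or more. In the lower panels the early hypochord points lie above those of stage 61 hypochord.

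Whether the stage difference in hypochord differed from that in coccyx was tested as a difference of differences over 8 libraries. With edgeR, 0 of 11164 genes (0%) had an adjusted p below 0.05 (smallest 0.167; limma voom also called 0), while 1901 genes had a more positive change in hypochord (17%) and 36 a more negative one (0.322%) at an unadjusted p under 0.05. In the same fit the stage difference within coccyx called 0 genes (0%), with 60 (0.537%) at an unadjusted p under 0.05. The spread in this fit came from both tissues. It includes the early hypochord pair, with 56.6% of genes past 4-fold against 19.1% in the early coccyx pair. The low coccyx counts therefore do not show that coccyx hardly changed. DESeq2 called 1179 genes for the difference of differences, 1161 of them more positive in hypochord, and without the stage 56 or the stage 58 hypochord library edgeR called 945 and 666. The stage 56 and stage 58 hypochord libraries, in which few genes were detected, enter both comparisons, and the part of detection in these counts was not tested. A gene at 0 in both early hypochord libraries could only rise in hypochord, so the excess of more positive changes is no test. For the 4130 genes with at least 10 counts in all 8 libraries, tested alone, edgeR called 0. At an unadjusted p under 0.05, 83 of them were more positive and 31 more negative. That minimum removes every gene at 0, so this split is no test of the tilt either. In the edgeR test on all 8 libraries, no gene is thus shown to be particular to hypochord, and the other counts rest on DESeq2 or on a single early library. DESeq2 tested 11164 genes, and the fits without the stage 56 or the stage 58 hypochord library tested 12197 and 12178.

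The 4 genes given by identifier differed from coccyx to unlike degrees. The difference of log2 fold changes, hypochord minus coccyx, was 6.89 ± 1.32 for ENSXETG00000005400 (SE, edgeR adjusted p = 0.167) and 4.24 ± 1.61 for ENSXETG00000003757 (edgeR adjusted p = 0.221). It was -2.53 ± 1.15 for ENSXETG00000022049 (edgeR adjusted p = 0.310) and -2.78 ± 2.19 for ENSXETG00000030216 (edgeR adjusted p = 0.690), whose coccyx values rest on 0 to 11 counts. With edgeR on the 8 libraries, 0 of the 4 passed the threshold. Over the alternatives the adjusted p of ENSXETG00000005400 ran from 0.000348 with DESeq2 to 0.494, and it was 0.0344 without the stage 56 and 0.0425 without the stage 58 hypochord library. That of the other genes stayed above the threshold in every alternative fitted.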

How the data were processed

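RNA of laser-captured hypochord and coccyx was extracted, made into complementary DNA by template switching and amplified by PCR without molecular identifiers, per the labels' protocols. HTSeq 0.13.5, cutadapt 1.8.1 and FastQC stand in the submitters' processing notes. Aligner, genome build, annotation and use of strand: not given in the sources used here. Each deposited file holds raw counts per gene of a single library, per the file headers for replicates 1 and 2 and from the values for replicate 3, so overlapping or near-identical genes have uncertain counts. 0 pairs of libraries held identical values. Groups and replicate numbers came from the labels.

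Counts were tested in R 4.3.3 with edgeR 4.0.16 (TMM factors, filterByExpr by group, robust quasi-likelihood fits, Benjamini-Hochberg adjustment over all genes tested, threshold 0.05), in 4 hypochord libraries with 2 residual degrees of freedom. The difference between tissues was tested on 8 libraries with 4 residual degrees of freedom. DESeq2 1.42.0, limma 3.58.1, other scalings, filters, thinning, other sets of libraries and leave-outs were alternatives. Scripts were tested on simulated data. The standard error of a log2 fold change is its size divided by the root of its F statistic, an approximation. Single-library log2 ratios used a prior count of 2 and genes with at least 20 counts over the pair. Equal depth means 1918822 counts drawn without replacement, as many as the shallowest library of replicates 1 and 2 held, and a gene drawn at least 1 time counted as detected (expected number).

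The libraries, comparisons and lists were chosen with earlier results of these data known. The planned gene lists and cell type markers need gene symbols and were not run, since 0 identifiers stood in the RefSeq gene table. Genes given by identifier are 2 in each direction whose groups did not overlap and whose mean log2 CPM reached 5; as 0 passed the threshold, they are those with the smallest unadjusted p.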

Additional observations from a re-analysis of the deposited data

Results flagged for a closer look

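The number of genes detected at equal depth in replicates 1 and 2 went opposite ways in the tissues. In hypochord the mean of the stage 61 libraries was 4085 genes above that of stages 56 and 58, with both stage 61 libraries above both early ones. In coccyx the same difference was -517, with both stage 61 libraries below both early ones. The difference between the tissues was not tested. Replicate 3 had the reverse in each tissue.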

How the results depend on the processing

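The count of 0 called genes in the hypochord comparison was also 0 under 9 of 15 alternatives; it was 227 with DESeq2, 1690 with 12 libraries and 1 to 1555 with a library left out. For the difference of differences it was 0 under 14 of 17, 1179 with DESeq2, and 0 to 945 with a library left out. A lone library took its spread from the rest; the cause of the other changes was not tested. Stages share replicate numbers whose meaning the labels do not state, so same-numbered libraries were not taken as pairs. Their deviations had r = -0.10 across genes. Among the early libraries the replicate number goes with the stage, so this r cannot tell whether the numbers mark pairs. With a replicate block, 0 genes were called in both comparisons, and in hypochord 76 were higher and 21 lower at an unadjusted p under 0.05 (78.4% higher), with a median log2 fold change of 1.08. The ratio of genes detected was 1.44 with at least 5 counts for detection and 1.58 to 1.64 with a library left out; in replicate 3 it was 0.883 with at least 5 counts and 0.859 at a depth of 1000000. Genes counted at stage 61 and at 0 before numbered 1241 with a minimum of 5 counts, 355 with 20, and 1126 to 1638 with a library left out, which asks for fewer zeros or counts; the reverse gave 2, 0, and 11 to 65. In replicate 3 the share higher at stage 61 was 29.4% past 2-fold, 10.3% past 8-fold and 16.1% by total counts; the share lower was 37.3% past 2-fold, 22.2% past 8-fold, 24.1% with at least 50 counts and 26.9% with a prior count of 5. Genes without overlap numbered 2248 to 2579 higher and 976 to 1139 lower under 4 alternatives. The fold changes of the 4 genes kept their sign in every alternative fitted, and the difference of differences of ENSXETG00000030216 was -4.47 to 0.49 with a library left out, the latter without stage 61 coccyx replicate 1. A floor of 3 counts, 0.554 CPM at stage 56 and 0.413 CPM at stage 58, limits what absence at these stages can mean. It is for counting error only. The 755 genes at 0 at both stages had mean stage 61 levels of 1.90 CPM or more, above this floor.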
